A study of Homo sapiens with 15 samples.

Results

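Heat shock chaperones and cochaperones of the cytosol and the mitochondria, 10 genes in all, were followed in 5 groups of human cells: HSP90AA1, HSP90AB1, FKBP4, HSPA8, HSPA4, HSPH1, DNAJA1, DNAJB1, HSPD1 and HSPE1. They were chosen by symbol with earlier results of these data known, so their counts beside the shares over all genes are descriptive. All 10 were listed in each of the 3 expression tables, which together list 16109 genes. Messenger RNA was measured in PC3, a prostate cancer line, and in P493-6, a line of the B lineage (Burkitt lymphoma, by its label) with a MYC transgene that tetracycline shuts off. The groups were PC3 with 8 µM MYCi975, a small molecule developed to inhibit the transcription factor MYC, PC3 with the DMSO solvent, P493-6 with 6 µM MYCi975, P493-6 with 0.1 µg/ml tetracycline, and P493-6 with DMSO, each with 3 libraries and 24 h of treatment. Tetracycline was dissolved in water, so its comparison with the DMSO control also differs by solvent. The 2 lines received different doses of MYCi975, each tissue is represented by 1 line, and separate cultures are not stated for the 3 replicates, so the p-values rest on a spread that may be technical.

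Molecular chaperones bind unfolded or immature proteins and help them reach their folded state. In the cytosol, J-domain proteins such as DNAJA1 and DNAJB1 hand clients to HSP70 proteins such as HSPA8, the HSP110 proteins HSPA4 and HSPH1 exchange the nucleotide of HSP70, and clients such as kinases and steroid receptors pass on to the HSP90 proteins HSP90AA1 and HSP90AB1, which FKBP4 assists as a peptidyl-prolyl isomerase. In mitochondria, HSPD1 and its cochaperonin HSPE1 form the barrel and the lid of a folding chamber. Many of these genes are activated by HSF1, the heat shock factor that binds repeats of GAA and TTC, while MYC with its partner MAX binds the E-box CACGTG.

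To show which of these genes carry a heat shock element or an E-box near a start site, the 300 bases around the start sites (250 before and 50 after, RefSeq, GRCh38.p14) were searched on both strands. The reference table held 15 such windows for 9 of the 10 genes, all but FKBP4. The 3-unit element, which is GAANNTTC followed by NNGAA or TTCNNGAA followed by NNTTC, was present in 5 windows of 5 genes, against 172 (0.49%) of all 35116 windows in the table. The sequences below are those 5 windows, read 5′ to 3′ on the strand of the gene, and capitals mark the 3-unit elements and any 2-unit element (TTCNNGAA or GAANNTTC), some of which lie within a 3-unit one.
HSP90AA1, chr14:102086995-102087294, minus strand: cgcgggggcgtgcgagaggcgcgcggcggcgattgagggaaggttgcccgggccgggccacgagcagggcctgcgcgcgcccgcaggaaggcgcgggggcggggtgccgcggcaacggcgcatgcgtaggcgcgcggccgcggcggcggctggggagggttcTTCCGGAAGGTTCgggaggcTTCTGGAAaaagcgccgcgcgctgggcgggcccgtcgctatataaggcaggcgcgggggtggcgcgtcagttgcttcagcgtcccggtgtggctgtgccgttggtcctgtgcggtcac
HSP90AB1, chr6:44247693-44247992, plus strand: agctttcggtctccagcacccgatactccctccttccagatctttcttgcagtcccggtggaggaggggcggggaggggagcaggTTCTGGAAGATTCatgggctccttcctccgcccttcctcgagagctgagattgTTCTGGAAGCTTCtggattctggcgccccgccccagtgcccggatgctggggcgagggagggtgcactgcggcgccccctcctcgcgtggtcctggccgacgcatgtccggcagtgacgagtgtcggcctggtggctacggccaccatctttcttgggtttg
HSPA8, chr11:123062087-123062386, minus strand: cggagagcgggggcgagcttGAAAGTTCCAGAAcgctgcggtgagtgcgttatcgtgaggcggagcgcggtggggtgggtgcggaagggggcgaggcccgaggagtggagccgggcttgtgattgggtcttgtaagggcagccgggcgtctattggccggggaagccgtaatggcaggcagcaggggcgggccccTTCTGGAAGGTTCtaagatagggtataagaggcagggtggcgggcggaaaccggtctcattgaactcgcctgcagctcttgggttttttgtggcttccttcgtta
DNAJA1, chr9:33025023-33025322, plus strand: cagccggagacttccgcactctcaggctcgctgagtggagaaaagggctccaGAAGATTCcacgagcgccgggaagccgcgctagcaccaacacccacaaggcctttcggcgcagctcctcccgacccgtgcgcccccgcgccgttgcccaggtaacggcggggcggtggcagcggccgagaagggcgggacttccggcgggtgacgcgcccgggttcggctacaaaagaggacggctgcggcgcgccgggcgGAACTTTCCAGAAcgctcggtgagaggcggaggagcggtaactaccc
HSPD1, chr2:197499791-197500090, minus strand: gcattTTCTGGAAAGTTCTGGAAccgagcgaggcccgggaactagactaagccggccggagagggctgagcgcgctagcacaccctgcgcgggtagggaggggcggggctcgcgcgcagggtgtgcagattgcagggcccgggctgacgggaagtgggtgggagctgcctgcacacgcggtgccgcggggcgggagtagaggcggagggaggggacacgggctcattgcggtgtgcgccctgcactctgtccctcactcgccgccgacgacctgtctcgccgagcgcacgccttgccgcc

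The files place HSP90AA1 at chr14:102080738-102139699 (minus strand), so its window lies inside the span of the gene, at a start site other than the outermost. The windows of HSP90AB1 (chr6:44246166-44253888, plus strand), HSPA8 (chr11:123057489-123063230, minus strand) and HSPD1 (chr2:197486581-197516737, minus strand) also lie inside their genes, and that of DNAJA1 (chr9:33025211-33039907, plus strand) reaches over the outermost start. HSP90AB1 and HSPA8 each held 2 of these 3-unit matches, and in HSPD1 the 2 matches overlap in a single run. The shorter element TTCNNGAA was present in 5 windows of 5 genes against 7.74% of all windows, and GAANNTTC in 7 windows of 6 genes, DNAJB1 among them, against 6.77%. The E-box CACGTG was present in 2 windows, one of HSPD1 and the only one of HSPE1, against 7.26% of all windows. By the spans in the files HSPE1 (chr2:197499994-197503457, plus strand) lies inside the span of HSPD1, on the opposite strand, and these 2 windows share 204 bases, so the E-box in them is 1 site. The sources used do not say whether reads were counted by strand, so reads of this gene pair could be shared where their exons overlap. The HSPE1 window is shown with that E-box in capitals.
HSPE1, chr2:197500129-197500428, plus strand: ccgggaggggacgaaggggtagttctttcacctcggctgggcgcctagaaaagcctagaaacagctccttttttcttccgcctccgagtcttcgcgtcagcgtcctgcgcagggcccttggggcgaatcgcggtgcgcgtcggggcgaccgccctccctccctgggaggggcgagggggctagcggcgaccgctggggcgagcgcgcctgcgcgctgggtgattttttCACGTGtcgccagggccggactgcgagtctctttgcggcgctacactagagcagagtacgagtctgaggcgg
CCAAT was present in 5 windows of 3 genes, against 34.6% of all windows. A match of letters is not evidence of binding, and binding was not measured.

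The libraries held 8162582 to 15926008 counted reads, and expression is given as CPM, which scales each gene's reads to a library of 1000000. In bulk RNA a lower CPM cannot tell fewer cells of a type from less RNA per cell, and CPM is a share of the library. MYC itself averaged 149.0 ± 3.75 CPM with tetracycline, against 4728 ± 54.8 CPM in P493-6 control (SD, n = 3 each), and with MYCi975 it averaged 5118 CPM in P493-6, against the same control, and 374.4 CPM in PC3, against 303.6 CPM in PC3 control (log2 fold changes −4.98, 0.11 and 0.30, all called). All 8 B cell markers examined were listed in P493-6 and 1 of them in PC3 (CD74, at 1.25 to 4.27 CPM), and all 7 epithelial markers were listed in PC3, CDH1 at only 4.32 to 6.56 CPM. In P493-6, KRT8, KRT18, CDH1 and CLDN4 were not listed, whereas EPCAM was found at 10.66 to 14.28 CPM in its MYCi975 and control libraries.

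All 10 chaperone mRNAs fell in each of the 3 comparisons with control, and in each of them every treated library lay below every control library for every gene. In PC3 with MYCi975 the median log2 fold change of the 10 genes was −0.62, against 0.00 over all genes tested, and 30.1% of the 13751 genes were called lower, where a call is a Benjamini-Hochberg adjusted p below 0.05 in limma on log2(CPM + 1). In P493-6 with MYCi975 the median was −0.31, against −0.04 over all genes, and 18% of 12998 genes were called lower. With tetracycline the median was −1.84, against −0.05 over all genes, and 41.9% of 13703 genes were called lower. All libraries of the treated group lay below all control libraries for 31.7%, 24.8% and 42.1% of all genes in these 3 comparisons, in the same order. The 2 comparisons in P493-6 share their control libraries. The tetracycline libraries also differed from control in B cell markers: all 8 were called higher, by 0.81 to 2.09 on the log2 scale, and their summed level was 11670 to 12080 CPM with tetracycline, against 3958 to 4191 CPM in control, and their part in the chaperone result was not tested. With MYCi975 in P493-6 3 of the 8 were called higher and 0 lower, with a summed level of 4495 to 4814 CPM, and in PC3 2 of the 7 epithelial markers were called higher and 4 lower, with a summed level of 1611 to 1733 CPM with MYCi975, against 1770 to 1814 CPM in control. The part of these markers in the chaperone results was not tested either.

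**Figure D1:**
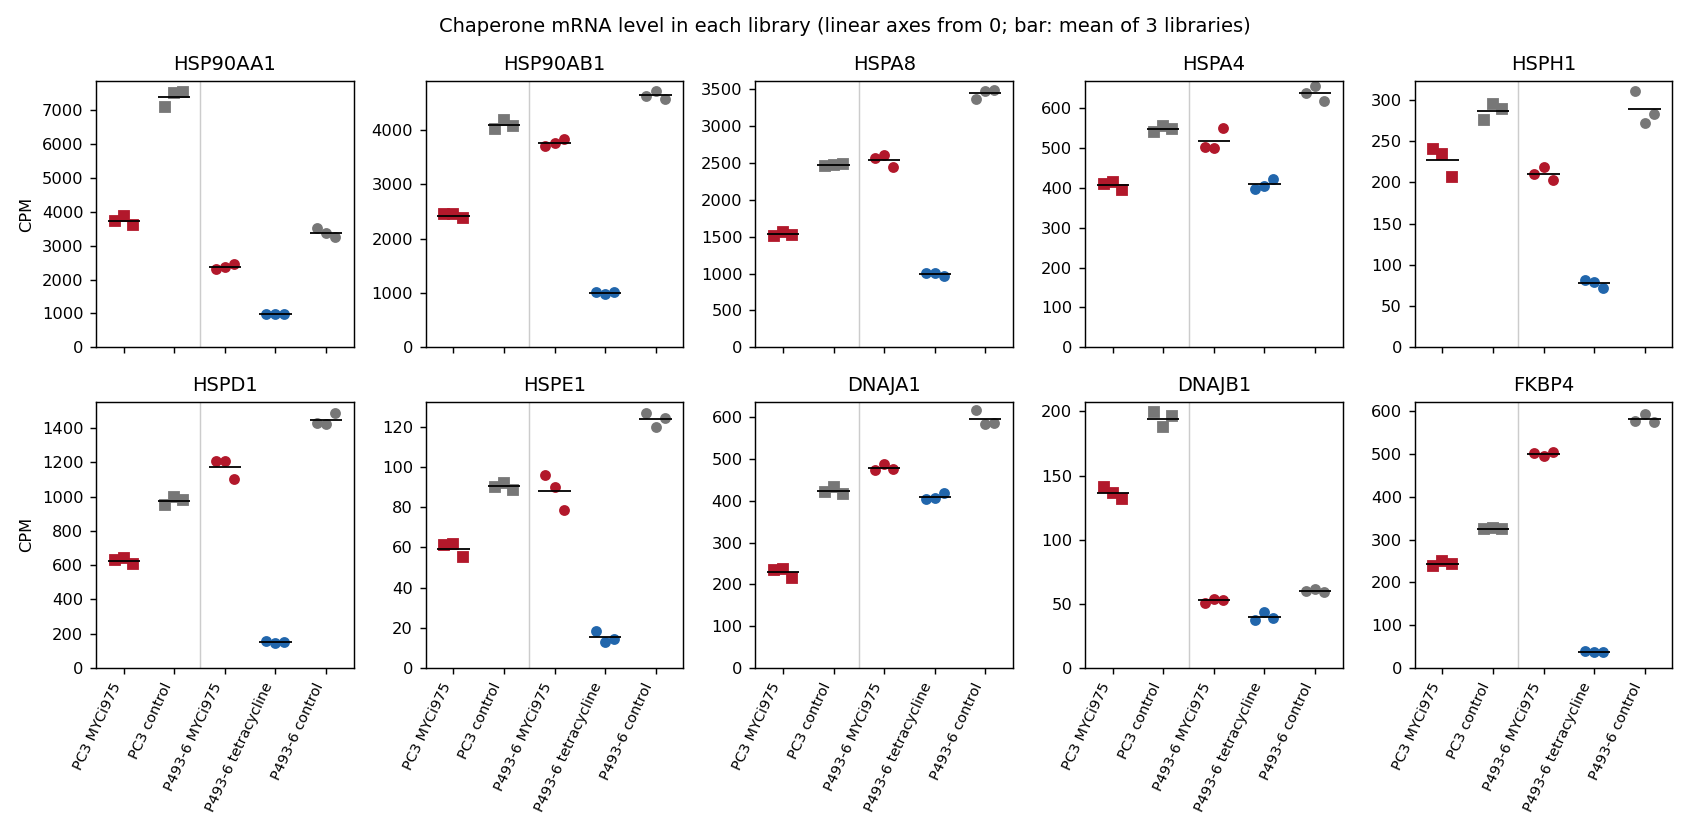
Level of each chaperone mRNA in CPM (linear axes from 0) in each of the 15 libraries; points are libraries, squares PC3 and circles P493-6, and bars are means of 3 libraries. For every gene the MYCi975 libraries lie below the control libraries of their line, and the tetracycline libraries lie lowest in P493-6, FKBP4 at 36.68 to 40.52 CPM against 574.0 to 593.7 CPM in control.

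The 2 cytosolic HSP90 genes were the most abundant of the 10 in PC3 libraries. HSP90AA1, the stress-inducible form, had 3739, 3867 and 3613 CPM in PC3 with MYCi975, against 7099, 7498 and 7536 CPM in PC3 control. Its log2 fold change of −0.98 (SE 0.0223, adjusted p = 8.71e-34) means that 50.7% of the control level was left, and it was the largest fall among the 10 genes in PC3, where 211 of 13751 genes had a lower log2 fold change. In P493-6 it had 2311, 2386 and 2462 CPM with MYCi975 and 976.2, 993.1 and 989.0 CPM with tetracycline, against 3533, 3363 and 3263 CPM in control. The 3 groups did not overlap, and the log2 fold changes were −0.50 (SE 0.0355, adjusted p = 2.32e-15) with MYCi975 and −1.78 (SE 0.0343, adjusted p = 7.16e-35) with tetracycline.

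HSP90AB1, the constitutive form, had 2452, 2452 and 2374 CPM in PC3 with MYCi975, against 4021, 4187 and 4086 CPM in PC3 control, a log2 fold change of −0.76 (SE 0.0213, adjusted p = 1.18e-52). In P493-6 it had 3713, 3765 and 3831 CPM with MYCi975 and 1020, 989.3 and 1015 CPM with tetracycline, against 4638, 4719 and 4575 CPM in control. The log2 fold change was −0.30 with MYCi975 (SE 0.0328, adjusted p = 6.58e-10), which left 81.2% of the control level, and −2.20 with tetracycline (SE 0.0326, adjusted p = 1.65e-38), which left 21.7%.

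FKBP4, the isomerase of steroid receptor complexes, had the largest fall of the 10 with tetracycline and among the smallest with MYCi975. It had 40.52, 37.49 and 36.68 CPM with tetracycline, against 577.6, 593.7 and 574.0 CPM in P493-6 control. The level was 15.2-fold lower (log2 fold change −3.89, SE 0.0481, adjusted p = 4.5e-41), and only 12 of 13703 genes had a lower log2 fold change. With MYCi975, P493-6 had 502.9, 494.6 and 504.0 CPM, which is 86.0% of the control level (log2 fold change −0.22, SE 0.0381, adjusted p = 1.63e-05). FKBP4 in PC3 had 238.0, 249.7 and 242.8 CPM with MYCi975, against 324.0, 326.2 and 324.5 CPM in control (log2 fold change −0.41, SE 0.0328, adjusted p = 1.45e-20).

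HSPA8, the constitutive cytosolic HSP70 that takes clients from the J-domain proteins, had 1515, 1560 and 1519 CPM in PC3 with MYCi975, against 2462, 2472 and 2486 CPM in PC3 control (log2 fold change −0.69, SE 0.0227, adjusted p = 2.81e-47). In P493-6 it had 2570, 2611 and 2446 CPM with MYCi975 and 1005, 1006 and 966.4 CPM with tetracycline, against 3366, 3477 and 3482 CPM in control. The log2 fold changes of −0.44 (SE 0.0344, adjusted p = 8.82e-14) and −1.79 (SE 0.0334, adjusted p = 2.42e-35) left 73.9% of the control level with MYCi975 and 28.8% with tetracycline.

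The HSP110 exchange factors HSPA4 and HSPH1 went apart with tetracycline. HSPH1 had 81.38, 79.51 and 72.46 CPM with tetracycline and 210.4, 218.6 and 202.4 CPM with MYCi975, against 311.1, 272.5 and 283.5 CPM in P493-6 control. HSPA4 had 397.5, 405.3 and 422.3 CPM with tetracycline and 503.1, 498.3 and 550.1 CPM with MYCi975, against 636.6, 654.3 and 618.3 CPM in the same control. Tetracycline thus left 26.9% of HSPH1 (log2 fold change −1.88, SE 0.052, adjusted p = 3.23e-29) but 64.2% of HSPA4 (−0.64, SE 0.0388, adjusted p = 3.58e-18), while MYCi975 in P493-6 left 72.8% of HSPH1 (−0.45, SE 0.0455, adjusted p = 8.32e-11) and 81.3% of HSPA4 (−0.30, SE 0.0404, adjusted p = 1.03e-07). HSPH1 in PC3 had the smallest fall of the 10, with 240.9, 234.6 and 206.8 CPM with MYCi975, against 276.0, 295.1 and 289.3 CPM in control (−0.34, SE 0.0422, adjusted p = 6.26e-08). HSPA4 had 409.7, 414.3 and 394.7 CPM with MYCi975 in PC3, against 538.5, 554.1 and 548.3 CPM in control (−0.43, SE 0.0297, adjusted p = 5.39e-24).

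The J-domain proteins DNAJA1 and DNAJB1 had smaller falls with tetracycline than HSPA8, HSP90AA1 and HSP90AB1. DNAJA1 had 405.3, 405.9 and 418.8 CPM with tetracycline and 473.9, 488.4 and 475.3 CPM with MYCi975, against 617.3, 584.9 and 587.1 CPM in P493-6 control. DNAJB1, the J protein best known for its induction by heat, had 37.53, 43.74 and 38.91 CPM with tetracycline and 50.98, 53.99 and 53.11 CPM with MYCi975, against 60.00, 61.25 and 59.55 CPM in control. Tetracycline left 68.7% of DNAJA1 (log2 fold change −0.54, SE 0.0385, adjusted p = 5.54e-16) and 66.5% of DNAJB1 (−0.58, SE 0.0697, adjusted p = 1.1e-09). With MYCi975 in P493-6 the log2 fold change was −0.31 for DNAJA1 (SE 0.0387, adjusted p = 1.32e-08) and −0.19 for DNAJB1 (SE 0.0604, adjusted p = 0.0137). The DNAJB1 call in P493-6 with MYCi975 is the weakest of the 30: its adjusted p was 0.0623 with TMM scaling, 0.0565 with edgeR on the recovered reads, 0.0604 without the P493-6 control library of replicate 2 and 0.0717 without the P493-6 MYCi975 library of replicate 1.

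In PC3 DNAJA1 had a lower log2 fold change than DNAJB1, as in the B lineage line with MYCi975. The difference between these genes was not tested. DNAJA1 had 235.7, 236.3 and 216.5 CPM with MYCi975, against 420.8, 432.9 and 417.3 CPM in PC3 control, which is 54.2% of the control level and the second largest fall of the 10 (log2 fold change −0.88, SE 0.0332, adjusted p = 2.45e-42). DNAJB1 had 141.0, 136.6 and 131.6 CPM with MYCi975, against 199.4, 187.5 and 196.1 CPM in PC3 control (−0.51, SE 0.038, adjusted p = 5.59e-22).

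The mitochondrial chaperonin pair stood next to FKBP4 in the size of its fall with tetracycline. HSPD1 had 157.4, 147.4 and 151.2 CPM with tetracycline and 1208, 1211 and 1105 CPM with MYCi975, against 1429, 1424 and 1487 CPM in P493-6 control. HSPE1 had 18.25, 13.11 and 14.45 CPM with tetracycline and 95.71, 90.21 and 78.47 CPM with MYCi975, against 126.7, 119.9 and 124.4 CPM in control. With tetracycline HSPD1 was 9.52-fold lower (log2 fold change −3.24, SE 0.0391, adjusted p = 4.4e-41) and HSPE1 was 8.10-fold lower (−2.95, SE 0.0837, adjusted p = 1.22e-25), and 51 and 75 of 13703 genes had a lower log2 fold change. With MYCi975 in P493-6 the log2 fold change was −0.30 for HSPD1 (SE 0.0378, adjusted p = 2.15e-08) and −0.49 for HSPE1 (SE 0.0558, adjusted p = 3.27e-09). HSPD1 in PC3 had 628.5, 641.4 and 608.6 CPM with MYCi975, against 952.5, 997.3 and 979.4 CPM in control (−0.64, SE 0.0272, adjusted p = 1.37e-38). HSPE1 had 61.08, 61.56 and 55.00 CPM with MYCi975 in PC3, against 90.10, 92.22 and 88.73 CPM in control (−0.60, SE 0.0492, adjusted p = 7.61e-20). HSPE1 shares 192 (18.6%) of its 1030 merged exon bases on the same strand with the read-through gene HSPE1-MOB4, and the annotation names 26 pseudogenes of HSPE1, 17 each of HSPA8 and HSPD1, 6 of DNAJA1, 5 of FKBP4 and 1 of DNAJB1, so the values of these genes are uncertain as far as the counting split or dropped shared reads. The annotation also names 5 pseudogenes of HSP90AB and 4 of HSP90AA, and none of HSPA4 or HSPH1.

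**Figure D2:**
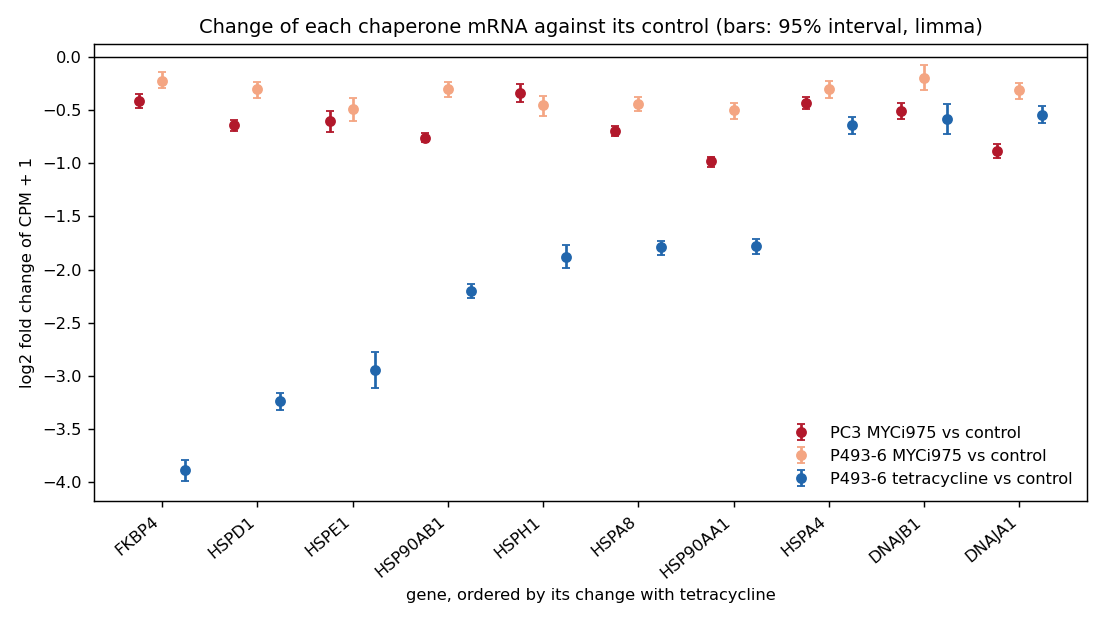
Log2 fold change of CPM + 1 against the control of the same line (y axis) for each chaperone gene (x axis, ordered by the change with tetracycline), with 95% intervals from limma over 6 libraries per comparison. All 30 values lie below 0, between −0.34 and −0.98 in PC3 and between −0.19 and −0.50 in P493-6 with MYCi975, while those with tetracycline spread between −0.54 for DNAJA1 and −3.89 for FKBP4.

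Together the 10 mRNAs took 0.963% of all counted reads in PC3 with MYCi975, against 1.68% in PC3 control, or 9625 ± 247 CPM against 16792 ± 357 CPM (SD, n = 3 each). In P493-6 they took 1.17% with MYCi975 and 0.413% with tetracycline, against 1.52% in control, or 11721 ± 89.7, 4128 ± 9.43 and 15206 ± 133 CPM. The groups of a line did not overlap in this sum, which follows from their not overlapping for any of the 10 genes.

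Tetracycline and MYCi975 were compared directly in P493-6 over all 9 libraries of the line. All 10 genes were higher with MYCi975 than with tetracycline, where 42.3% of 12860 genes were called higher, and for each of the 10 every MYCi975 library lay above every tetracycline library, as for 42.7% of all genes. The median log2 difference was 1.39, against 0.08 over all genes. FKBP4 was 13.1-fold higher with MYCi975 (log2 difference 3.68, SE 0.0434, adjusted p = 9.55e-50), HSPD1 was 7.73-fold higher (2.94, SE 0.0395, adjusted p = 1.14e-47) and HSPE1 was 5.77-fold higher (2.46, SE 0.0865, adjusted p = 3.73e-19). HSP90AB1 (1.90), HSPH1 (1.43), HSPA8 (1.36) and HSP90AA1 (1.27) lay between these and the 3 genes that differed least. Those were DNAJB1 at 0.39 (SE 0.0669, adjusted p = 1e-06), HSPA4 at 0.34 (SE 0.0405, adjusted p = 1.79e-10) and DNAJA1 at 0.22 (SE 0.0383, adjusted p = 8.63e-07) on the log2 scale.

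The effect of MYCi975 in PC3, at 8 µM, was set against its effect in P493-6, at 6 µM, as the interaction of line and treatment over 12 libraries. Line and dose cannot be told apart in it. The fall was larger in PC3 for 8 of the 10 genes, 0 were called the other way and 2 were not called, where 18.2% of 11240 genes were called lower in this contrast, 18.1% higher and 36.3% either way. The log2 difference was −0.57 for DNAJA1 (SE 0.0508, adjusted p = 7.32e-12), −0.48 for HSP90AA1 (SE 0.0434, adjusted p = 2e-10), −0.46 for HSP90AB1 (SE 0.0354, adjusted p = 1.64e-13) and −0.34 for HSPD1 (SE 0.0467, adjusted p = 2.18e-07). It was smaller for DNAJB1 (−0.32, adjusted p = 0.000182), HSPA8 (−0.25, adjusted p = 1.09e-06), FKBP4 (−0.20, adjusted p = 0.000787) and HSPA4 (−0.13, adjusted p = 0.0415). For HSPE1 the difference was −0.11 with a 95% interval of −0.28 to 0.05 (adjusted p = 0.279), and for HSPH1 it was 0.12 with an interval of −0.03 to 0.27 (adjusted p = 0.225), so differences within those intervals were not resolved. The HSPA4 call was lost in 8 of 17 alternatives, over which its adjusted p was 0.0113 to 0.154. It was lost with the replicate block (0.0884) and on leaving out PC3 control replicate 2 (0.0964) or 3 (0.0772), PC3 MYCi975 replicate 1 (0.0555) or 3 (0.116), P493-6 control replicate 1 (0.0556) or 3 (0.116), or P493-6 MYCi975 replicate 3 (0.154). Without that last library HSPE1 was called (−0.19, adjusted p = 0.0364). Without the PC3 MYCi975 library of replicate 3 HSPH1 was called in the other direction (0.18, adjusted p = 0.0235).

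Levels were compared between genes per kilobase of merged exons (GENCODE version 29), as a description, since exon capture can enrich genes unequally and the lines were deposited in separate tables. With MYCi975 in PC3 the order ran HSP90AA1 (929 CPM per kilobase), HSP90AB1 (814), HSPA8 (567), HSPD1 (244), DNAJA1 (96.4), HSPA4 (83.7), FKBP4 (64.4), HSPE1 (57.5), DNAJB1 (55.7) and HSPH1 (40.1), and of the neighbours in that order the libraries of HSPE1 and DNAJB1 overlapped and the others did not. In PC3 control HSP90AA1 was also highest at 1830 CPM per kilobase, HSP90AB1 followed at 1380 and HSPH1 was lowest at 50.6, and the order differed in HSPE1 (87.7) and FKBP4 (85.9), whose libraries overlapped.

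With MYCi975 in P493-6 HSP90AB1 was highest at 1260 CPM per kilobase, followed by HSPA8 (942), HSP90AA1 (593), HSPD1 (457), DNAJA1 (201), FKBP4 (132), HSPA4 (107), HSPE1 (85.6), HSPH1 (37.1) and DNAJB1 (21.5), with no overlap between neighbours. With tetracycline HSPA8 was highest at 368 CPM per kilobase, ahead of HSP90AB1 (338), HSP90AA1 (245), DNAJA1 (172), HSPA4 (84.2) and HSPD1 (59.1). The libraries of HSPE1 (14.8) overlapped there with those of both DNAJB1 (16.4) and HSPH1 (13.7), and FKBP4 came last, apart from the rest, at 10.1 CPM per kilobase. P493-6 control had the order seen with MYCi975, with HSP90AB1 at 1560, FKBP4 in the sixth place at 154 and DNAJB1 last at 24.6 CPM per kilobase, and no neighbours overlapped.

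The 3 ratios examined within a library, which do not depend on library scaling, compared pairs of these genes. HSP90AA1 over HSP90AB1 averaged 0.62 ± 0.029 on the log2 scale in PC3 with MYCi975, against 0.85 ± 0.032 in PC3 control (SD, n = 3 each). In the P493-6 groups it averaged −0.66 ± 0.023 with MYCi975, −0.03 ± 0.035 with tetracycline and −0.46 ± 0.055 in control. MYCi975 libraries differed from control by −0.22 in PC3 and by −0.20 in P493-6, those with tetracycline by 0.42, and in each case the libraries of the 2 groups did not overlap. DNAJB1 over HSPA8, a heat-inducible J protein over the constitutive HSP70, averaged −3.49 ± 0.056 in PC3 with MYCi975, against −3.67 ± 0.048 in PC3 control. In P493-6 this ratio averaged −5.59 ± 0.065 with MYCi975 and −4.63 ± 0.11 with tetracycline, against −5.84 ± 0.031 in control. It was higher than control by 0.18, 0.24 and 1.20 in these 3 comparisons, without overlap of libraries. The chaperonin ratio HSPD1 over HSPE1 overlapped between MYCi975 and control in PC3 (3.40 ± 0.056 against 3.43 ± 0.031). In P493-6 that ratio was 3.74 ± 0.079 with MYCi975 and 3.33 ± 0.20 with tetracycline, against 3.55 ± 0.046 in control. Its difference of −0.22 with tetracycline was −0.11 without the tetracycline library of replicate 1.

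**Figure D3:**
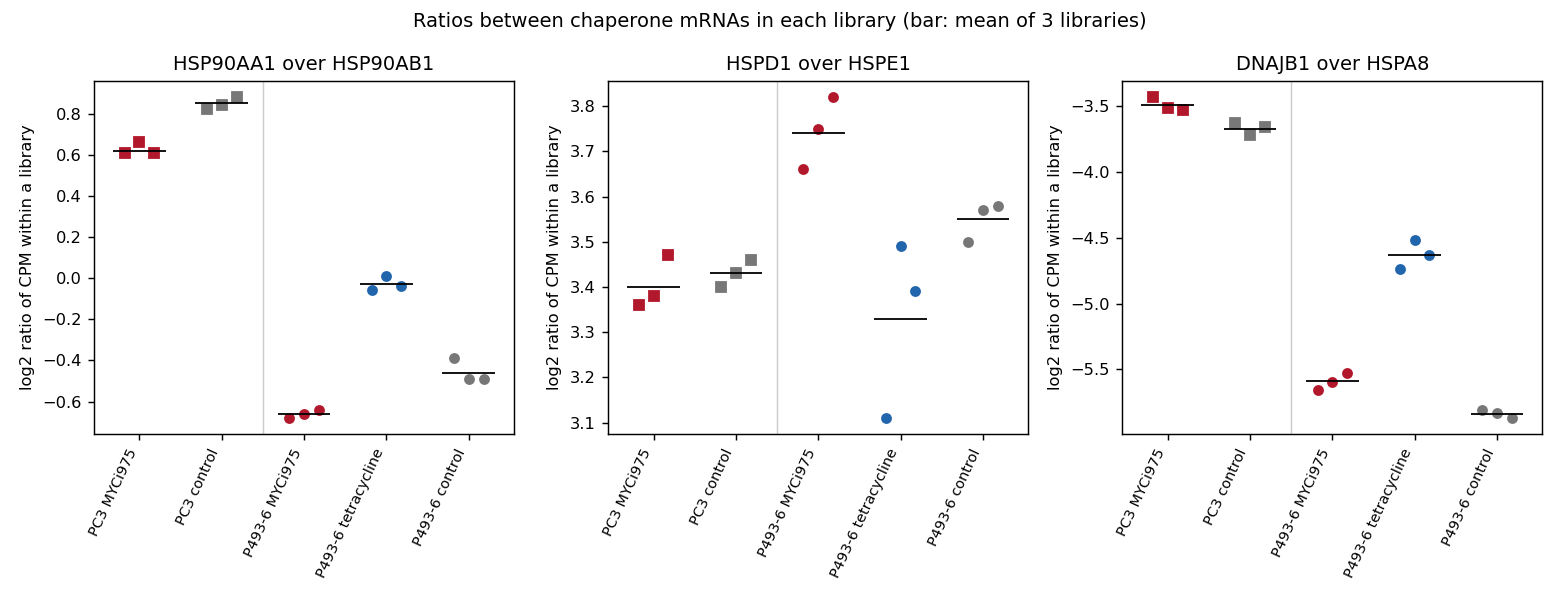
Log2 ratio of CPM between chaperone genes within each library (y axes, which do not start at 0) for the 5 groups; points are libraries and bars are means of 3. HSP90AA1 over HSP90AB1 lies lower with MYCi975 than in control in both lines and higher with tetracycline, and the tetracycline libraries of HSPD1 over HSPE1 spread between 3.11 and 3.49.

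The genes that act beside these 10 were grouped in 5 lists by function, and the shares of all genes called higher were 29% in PC3 with MYCi975, 10.6% in P493-6 with MYCi975 and 36.2% with tetracycline. Of 15 HSP90 cochaperones, 9 fell and 2 rose in PC3 with MYCi975, with a median log2 fold change of −0.16 against 0.00 over all genes. In P493-6, 10 fell and 0 rose with MYCi975 (median −0.23, against −0.04 over all genes, and 5 not called), and 14 fell and 0 rose with tetracycline (median −1.44, against −0.05). STIP1, which bridges HSP70 and HSP90, had log2 fold changes of −0.80 in PC3 with MYCi975, −0.43 in P493-6 with MYCi975 and −1.99 with tetracycline, and the HSP90 cochaperone PTGES3 had −0.53, −0.32 and −1.62 in the same comparisons, all called. AHSA1, the activator of the HSP90 ATPase, fell with tetracycline (−1.92), as did TOMM34 (−1.86) and NUDC (−1.76). In PC3 FKBP5, an isomerase related to FKBP4, fell (−0.85, 30.19 CPM with MYCi975 against 55.17 CPM in control), and so did the phosphatase PPP5C (−0.51). In P493-6 with MYCi975 PPID (−0.35) and TTC4 (−0.34) fell.

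Of the HSP70 cochaperones, 11 of 22 measured fell and 3 rose in PC3 with MYCi975, 9 of 21 fell and 0 rose in P493-6 with MYCi975, and 16 of 21 fell and 4 rose with tetracycline. The list's median log2 fold changes were −0.14, −0.09 and −0.65, beside 0.00, −0.04 and −0.05 over all genes. HSPA4L, a close relative of HSPA4, fell in PC3 with MYCi975 (log2 fold change −0.68) and with tetracycline (−2.08), where HSPA4 itself was at −0.64. The ribosome-bound J protein DNAJC2 (−1.94) and BAG2 (−1.71) also fell with tetracycline. DNAJB2 moved the other way, with 26.79 CPM with tetracycline against 4.669 CPM in P493-6 control (log2 fold change 2.29, adjusted p = 2.44e-20), and it rose by 0.39 in PC3 with MYCi975. HSPA14 (−0.51) and DNAJC7 (−0.41) fell in PC3 with MYCi975, and HSPA14 (−0.37) and DNAJC9 (−0.36) fell in P493-6 with MYCi975.

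All 12 mitochondrial genes fell with tetracycline (median −1.45), whereas with MYCi975 3 fell and 3 rose in PC3 (median 0.00) and 4 fell and 1 rose in P493-6 (median −0.11). TRAP1, the mitochondrial HSP90, had 68.73 CPM with tetracycline against 584.4 CPM in control (log2 fold change −3.07, adjusted p = 6.39e-39), and HSPA9, the mitochondrial HSP70 (−2.21), and its exchange factor GRPEL1 (−2.30) fell with it. In PC3 with MYCi975 the protease LONP1 (0.76), GRPEL2 (0.33) and HSPA9 (0.29) rose, and GRPEL1 (−0.49) fell. HSPA9 differed between PC3 and P493-6 in its change with MYCi975 (interaction 0.43, adjusted p = 1.93e-10), as did LONP1 (0.61, adjusted p = 1.41e-12).

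All 4 endoplasmic reticulum paralogs rose in PC3 with MYCi975 (median 0.55) and fell with tetracycline (median −0.85), and 1 of them, HSPA13, rose in P493-6 with MYCi975. HSPA5, the HSP70 of the endoplasmic reticulum, had 1475 CPM in PC3 with MYCi975 against 536.4 CPM in control (log2 fold change 1.46, adjusted p = 1.4e-61), the opposite direction of its cytosolic paralog HSPA8. In P493-6 HSPA5 had 664.9 CPM with MYCi975 and 313.4 CPM with tetracycline, against 673.4 CPM in control, values of −0.02 (adjusted p = 0.758) and −1.10 (adjusted p = 2.74e-26) on the log2 scale. The interaction was 1.47 for HSPA5 (adjusted p = 6.7e-25), 0.27 for HSP90B1 (adjusted p = 0.00395) and 0.28 for HYOU1 (adjusted p = 3.79e-05). HSP90B1, the HSP90 of the same compartment, rose in PC3 with MYCi975 (0.25) and fell with tetracycline (−0.84).

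The HSF family and the most heat-inducible genes did not move in 1 direction. In PC3 with MYCi975 8 of 17 fell and 5 rose (median −0.10), in P493-6 with MYCi975 4 of 14 fell and 2 rose (median −0.02), and with tetracycline 8 of 14 fell and 3 rose (median −0.30). HSF1 averaged 212.0 CPM in PC3 with MYCi975 against 183.3 CPM in control (log2 fold change 0.21, adjusted p = 4.05e-07). In P493-6 HSF1 averaged 121.0 CPM with MYCi975 and 92.76 CPM with tetracycline, against 122.3 CPM in control, log2 fold changes of −0.01 (adjusted p = 0.855) and −0.40 (adjusted p = 9.09e-09). CHORDC1, an HSP90-binding protein, fell in all 3 comparisons, with −0.82 in PC3, −0.51 in P493-6 given MYCi975 and −1.26 in P493-6 given tetracycline. Of the inducible HSP70 genes, HSPA1A (−0.78) and HSPA1B (−0.65) fell in PC3, which is uncertain because the 2 genes are near-identical. HSPA6 was called higher there (0.44, adjusted p = 0.0111 in limma), at a low level of 3.734 CPM with MYCi975 against 2.491 CPM in control. With tetracycline HSF2 (−1.47) and MRPL18 (−1.29) fell, while DNAJB4 (1.41) and IER5 (1.35) rose. DNAJB4 also rose in PC3 with MYCi975 (0.63), and in P493-6 with MYCi975 SERPINH1, the collagen chaperone, rose (0.52), while MRPL18 (−0.38) and HSPB1 (−0.31) fell.

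**Figure D4:**
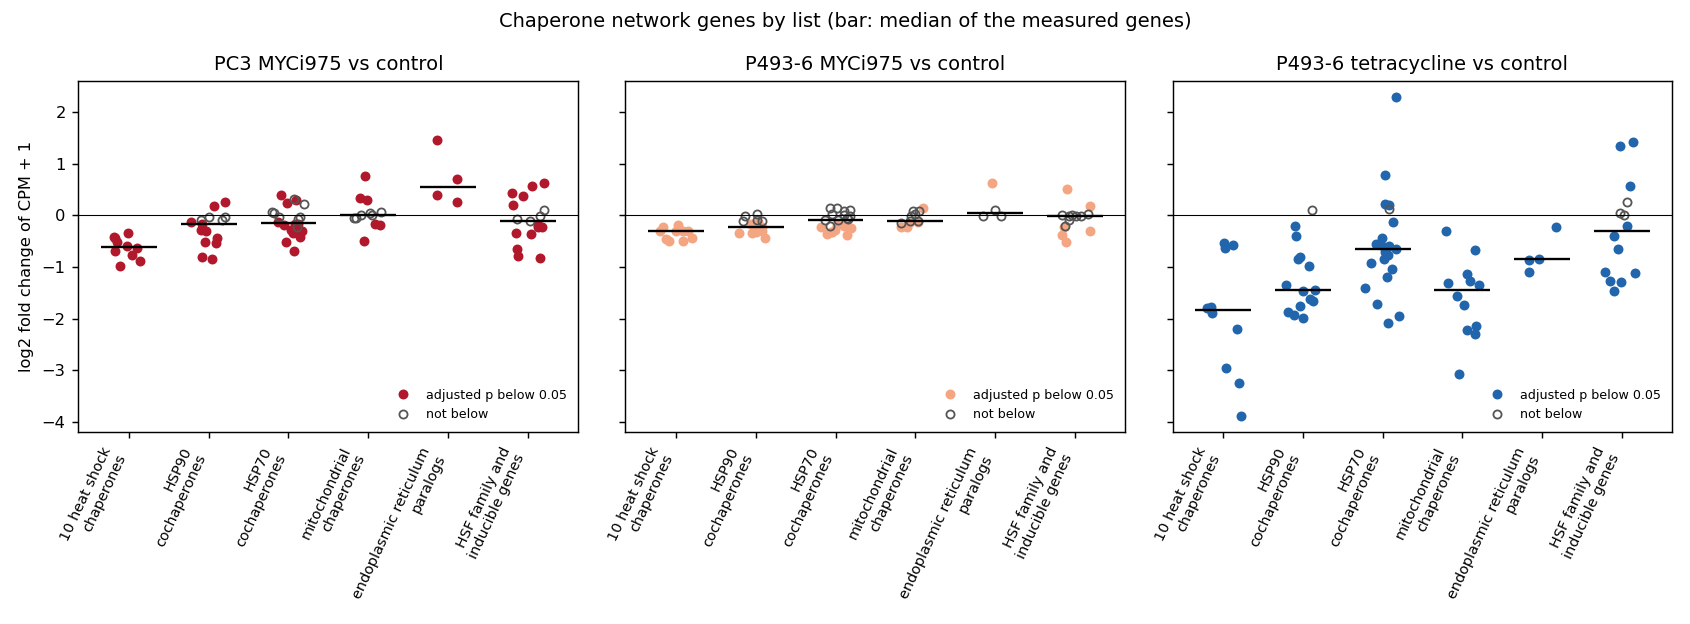
Log2 fold change of CPM + 1 against control (y axis) of the 10 chaperone genes and of 5 lists of related genes (x axis) in the 3 comparisons; points are genes, filled where the adjusted p lies below 0.05, and bars are medians of the measured genes. The 10 chaperone genes lie below 0 in all panels, while the 4 endoplasmic reticulum paralogs lie between 0.25 and 1.46 in PC3 with MYCi975 and between −1.10 and −0.22 with tetracycline.

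The 10 genes did not follow each other equally closely over the 15 libraries once each line was centred on its own mean. The Pearson correlation of a gene with the mean of the other 9 was 0.998 for HSP90AB1, 0.994 for HSPA8, 0.988 for HSPE1, 0.985 for HSPD1 and HSPH1, 0.968 for HSP90AA1, 0.958 for FKBP4, 0.896 for HSPA4, 0.877 for DNAJB1 and 0.668 for DNAJA1. These values describe 5 group means more than 15 separate points, since libraries of a group lie close together. Among 9766 other genes, the 6 whose profile was most like the mean of the 10 were PTGES3 (Pearson r = 0.9988 over 15 libraries), RANBP1 (0.9982), SYNCRIP (0.9982), CCT6A (0.9978), CCT3 (0.9977) and HNRNPAB (0.9977). CCT6A and CCT3 are subunits of the cytosolic chaperonin, and they fell in all 3 comparisons: CCT6A had log2 fold changes of −0.52 in PC3 and −0.35 in P493-6 under MYCi975 and −1.59 under tetracycline, and CCT3 had −0.51, −0.26 and −1.82. RANBP1, a regulator of the nuclear transport GTPase Ran, had −0.78, −0.38 and −2.53 in the same comparisons. Since these genes were picked for their likeness to the mean of the 10, their falls follow largely from that choice and are not a separate result.

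The 5 genes with a 3-unit heat shock element in a window above, HSP90AA1, HSP90AB1, HSPA8, DNAJA1 and HSPD1, had the 5 largest falls of the 10 in PC3 with MYCi975, between −0.64 and −0.98, against −0.34 to −0.60 for the other 5. With tetracycline they lay between −0.54 and −3.24 and overlapped with the others, and in P493-6 with MYCi975 they lay between −0.30 and −0.50, also overlapping with the other 5 at −0.19 to −0.49. This grouping was made after the values were seen and was not tested, and FKBP4, 1 of the other 5, was not searched. The number of windows searched also differed, with 3 for HSP90AB1 and DNAJB1, 2 for HSP90AA1 and HSPD1, and 1 for each other gene searched. The element of HSPD1 lies inside the span of HSPE1, just outside the HSPE1 window. The split between HSPD1 (−0.64) and HSPE1 (−0.60) in PC3 thus rests on where that window ends. HSPD1 and HSPE1, whose windows share the only E-box found, had the second and the third largest falls with tetracycline. That E-box is 1 site, FKBP4 with the largest fall was not searched, and a link of the E-box with the fall was not tested.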

How the data were processed

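Total RNA (50 ng) from 15 samples was made into stranded exon-capture libraries, per the labels' protocols. The submitters' processing notes name STAR, HTSeq, edgeR and the build hg38, but versions and settings were not given in the sources used. In 3 tables the authors deposited CPM per gene and library, and, per the file headers, also a log2 fold change, a likelihood ratio as a score, p-values and marks for each gene. Both P493-6 tables hold the same control values. Every CPM was a whole number of reads within 0.001 reads, and the recovered totals were 8162582 to 15926008 per library. Chi-square per gene between libraries of a group, expected at 1 from counting error, was 2.07 to 6.06. The authors' deposited table marked all 10 genes as lower in each comparison, except DNAJB1 in P493-6 with MYCi975 (authors' adjusted p = 0.0305).

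Here limma 3.58.1 in R 4.3.3, with trend and robust settings, was fitted to log2(CPM + 1) of all genes of a table, two-sided, with a call at a Benjamini-Hochberg adjusted p below 0.05. The pseudocount of 1 CPM understates the change of low genes. The comparison of MYCi975 with tetracycline used 9 libraries, and that between the lines 12. Alternatives were a pseudocount of 0.1, a mean CPM of at least 5, TMM scaling, edgeR 4.0.16 on the recovered reads, a replicate block, all 9 P493-6 libraries and leaving out each library. Leaving out libraries for the ratios was added after seeing the data. Besides the 10 genes, MYC and HSF1, the text names up to 4 called genes of each list with the largest absolute change in a comparison, and the 6 most alike in profile. HSPA6 is named in addition, beside HSPA1A and HSPA1B. The endoplasmic reticulum paralogs in each comparison count as such. The members and lists were chosen with earlier results of these data known. Planned protein features were not used here. Levels per kilobase use merged exons of GENCODE version 29, whose gene spans equal those in the files for all 10 genes.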

Additional observations from a re-analysis of the deposited data

Results flagged for a closer look

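For 8 of the 10 chaperone genes the change with MYCi975 differed between PC3, at 8 µM, and P493-6, at 6 µM, in the test of the interaction itself, with the larger fall in PC3. On the log2 scale, as the change in PC3 minus that in P493-6, the difference was −0.57 for DNAJA1, −0.48 for HSP90AA1, −0.46 for HSP90AB1 and −0.34 for HSPD1. It was −0.32 for DNAJB1, −0.25 for HSPA8, −0.20 for FKBP4 and −0.13 for HSPA4. The HSPA4 difference (adjusted p = 0.0415 from limma) lost its call in 8 of 17 alternatives, with an adjusted p of 0.0113 to 0.154 over them. Of all 11240 genes tested, 36.3% differed in either direction, and dose and line cannot be told apart. Outlying libraries were not looked for, since each group has 3.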

How the results depend on the processing

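The counts of chaperone genes called lower in PC3 with MYCi975 (10) and with tetracycline (10), and higher with MYCi975 than with tetracycline (10), were the same under every alternative run. In P493-6 with MYCi975 the count was 9 to 10, since DNAJB1 lost its call with TMM scaling, with edgeR and without either of 2 libraries. Between the lines, 7 to 8 genes were called lower, and 0 to 1 higher when a library was left out. TMM scaling within each comparison put the summed level at 11907 CPM in P493-6 with MYCi975, against 14968 CPM in P493-6 control, and at 4244.1 CPM with tetracycline, against 14788 CPM in the same control libraries. It put the split of all genes in P493-6 with MYCi975 at 1819 higher and 1690 lower, against 1375 and 2338 without it. Of 660 further values of single genes, 646 kept their direction and their side of the threshold, 12 lost the call, 2 gained it, and none changed sign. Libraries of the same replicate number did not deviate together (correlations of −0.114 to 0.0717), so no pairing by number was seen. A small shared effect would not show in this check, so it does not settle whether the numbers mark shared cultures. With the replicate block, 10 genes were called lower in each comparison with control and 7 between the lines, where HSPA4 had an adjusted p of 0.0884, and over all genes the block gave 3274 calls in P493-6 with MYCi975, against 3713 without it. Genes at low CPM are the least precise: HSPE1 with tetracycline, at 13.11 to 18.25 CPM, has the largest standard error of the 10 in that comparison.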
